A study of Mus musculus with 6 samples.

Results

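The genes described here are 10 alcohol and aldehyde dehydrogenases, chosen by symbol from the 54532 genes of a mouse liver expression table. They are Adh1, Adh4, Adh5, Aldh1a1, Aldh1a7, Aldh1l1, Aldh2, Aldh3a2, Aldh8a1 and Aldh9a1. Each symbol matched 1 gene. The study compared livers without G3bp1 in hepatocytes (HKO, 3 libraries) with livers of floxed litter controls (Flox, 3 libraries). G3BP1 is an RNA-binding protein of stress granules, and its role in non-alcoholic steatohepatitis, a fatty liver with inflammation, was the question of the study. All mice were put on a high-fat diet (HFD) at 6 weeks of age and stayed on it for 12 weeks, so no group on another diet enters the comparison. The labels name neither the Cre driver nor the deleted exons. Other liver cells keep G3bp1 in a hepatocyte-specific knockout.

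Alcohol dehydrogenases (ADH) oxidise alcohols to aldehydes with NAD+, and aldehyde dehydrogenases (ALDH) oxidise the aldehydes to acids. In liver the pair clears ethanol and acetaldehyde, makes retinoic acid from vitamin A, and removes aldehydes that arise from lipids, amino acids, folate and carnitine metabolism. Hepatocytes hold most of these enzymes, and several of the genes are abundant there.

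Some of the genes are neighbours or close copies, and their sequences are shown first because reads can be shared between copies. Adh1, Adh4 and Adh5 lie on the plus strand of chromosome 3 between 138260991 and 138455499 (GRCm38), with Adh7, Adh6a, Adh6b and the pseudogene Adh6-ps1 in the same row of genes. Aldh1a1 (plus strand, from 20492715) and Aldh1a7 (minus strand, to 20727562) lie side by side on chromosome 19. Aldh1l1 lies on chromosome 6, Aldh2 on 5, Aldh3a2 on 11, Aldh8a1 on 10 and Aldh9a1 on 1. The coding sequences of Aldh1a1 and Aldh1a7 have 1506 bases each and are 91.63% identical, with 126 mismatches. Below are the 60 coding bases within 1 exon in which the pair differs most, with the 16 mismatched bases in capitals. In Aldh1a1 they lie at chr19:20619973-20620032 (plus strand, exon 7 of the longest coding transcript) and in Aldh1a7 at chr19:20719252-20719311 (minus strand, exon 4).
Aldh1a1: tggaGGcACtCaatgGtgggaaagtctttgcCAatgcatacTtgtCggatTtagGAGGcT
Aldh1a7: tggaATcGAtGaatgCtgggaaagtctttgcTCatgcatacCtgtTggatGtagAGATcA
The longest run without a mismatch in the coding sequence was 100 bases, so a read inside it could not be placed by its sequence alone. None of the 10 had a near-identical copy. That meant a different gene whose longest aligned stretch was 97% or more identical over 80% or more of the shorter transcript. Exons of Adh1 overlap those of the antisense gene Gm16559 by 6.09%, those of Aldh1l1 overlap antisense Gm15756 by 11.1%, and those of Aldh2 overlap Gm42879 by 2.54%. The other overlap was that of Aldh1l1 with Gm45901 (2.33%). The library kit does not mark strand.

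Promoter sequence from RefSeq (GRCm38.p6) was found for 9 of the 10 genes, in 11 windows because Adh5 and Aldh1a1 each have an alternative start. The 250 bases before each start were searched on both strands for 6 motifs. The octamer ATGCAAAT stood in 3 of the 11 windows (Aldh1a1, Aldh1a7 and Aldh8a1), against 1.60% of all 32851 windows of that length. It was added to the search after the sequences were read, and the Aldh1a1 and Aldh1a7 windows that hold it are close copies. The count is therefore no test of enrichment. GGGCGG, the GC box, stood in windows of Adh5, Aldh1l1 and Aldh3a2, against 32.7% of all windows. CCAAT stood in windows of 6 genes (33.9% of all), TATAAA in those of Adh5 and Aldh1a7 (12.4%), and CACGTG in that of Aldh3a2 (6.02%). The DR1 element, a direct repeat that nuclear receptors such as PPARalpha can bind, was searched only as an exact copy of its consensus. This copy stood in 0 of the 11 windows (0.0335% of all). At so low a rate a match in 11 windows was unlikely from the start. The 0 therefore does not show that these genes lack a DR1 element. The 4 stretches below, each of 100 bases ending at the base before the start, show the genes with the octamer and, for contrast, the GC-rich start of Adh5. Capitals mark ATGCAAAT, CCAAT and the GC box, which reads CCGCCC on the shown strand.
Aldh1a1, chr19:20601868-20601967, plus strand: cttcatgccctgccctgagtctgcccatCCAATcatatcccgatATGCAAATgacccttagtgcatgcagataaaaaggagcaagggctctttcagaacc
Aldh1a7, chr19:20727557-20727656, minus strand: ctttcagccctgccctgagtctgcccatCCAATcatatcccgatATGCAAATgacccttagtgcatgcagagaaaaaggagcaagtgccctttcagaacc
Aldh8a1, chr10:21377200-21377299, plus strand: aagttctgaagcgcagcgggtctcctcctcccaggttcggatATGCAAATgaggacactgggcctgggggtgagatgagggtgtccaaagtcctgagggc
Adh5, chr3:138442993-138443092, plus strand: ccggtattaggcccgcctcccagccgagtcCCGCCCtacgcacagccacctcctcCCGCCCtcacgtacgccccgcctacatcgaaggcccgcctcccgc
The Aldh1a1 and Aldh1a7 stretches are identical at 94 of 100 bases. The 250 bases before the start of Adh5 hold 63.6% G and C and 21 CG pairs, against medians of 52.4% and 6 over all windows. A match is a match of letters and does not show that a factor binds.

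The depth, recovered from the deposited FPKM (reads scaled by gene length and library size), was 15804115 to 17954066 assigned reads per library. G3bp1 itself stood at 8.46, 8.46 and 9.10 FPKM in the Flox libraries and at 4.66, 4.27 and 4.44 in the HKO libraries, 48.6% lower, so each library matched its label. Its log2 fold change of -0.83 had an adjusted p of 0.11 in limma, so G3bp1 itself did not pass the threshold. Flox 3 lay apart from Flox 1 and Flox 2 on the first principal component of all tested genes (33.6% of the variance). It stood at 14.1 against -14.9 and -23.5, next to HKO 2 and HKO 3 at 13.8 and 14.5. HKO 1, at -3.96, lay apart from HKO 2 and HKO 3. On the second component (23.8%) Flox 3 and HKO 1 stood at -18.7 and -15.8, and HKO 2 and HKO 3 at 12.6 and 13.6. Whether the 3 libraries of a group are 3 animals is not stated in the labels. The p-values therefore cover the spread between these libraries, which may be technical. Of the 11856 genes tested in limma, 1 passed the adjusted threshold of 0.05 as lower in HKO (0.00843%; neither G3bp1 nor one of the 10) and 0 as higher (0%), while 539 were lower at an unadjusted p under 0.05 (4.55%). Voom on the recovered reads called 3 lower (0.0253%) and 0 higher (0%).

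All 10 dehydrogenases had a lower mean in the livers without hepatocyte G3bp1, by 8.50% (Aldh8a1) to 35.5% (Aldh3a2). None of them passed the threshold over all genes in limma (0 of 10, adjusted p = 0.58 to 0.741), and voom also called 0. At an unadjusted limma p under 0.05, 4 of the 10 were lower, against 4.55% of all genes tested. The median log2 fold change of the 10 was -0.34 (HKO against Flox, with 1 added to each FPKM before the log), against -0.01 over all genes tested and -0.14 over the 953 genes of at least 50 FPKM. A lower mean in HKO, here and in later counts the mean of log2 values, was seen in 51.2% of all genes tested. Among the genes of at least 50 FPKM, a range in which every one of the 10 lies, it was seen in 70%. In 7 of the 10 genes each HKO library lay below each Flox library, which 7.21% of all genes tested and 14.6% of the genes of at least 50 FPKM did. The reverse arrangement was seen in 0 of the 10 and in 6.06% of all genes tested. With 1 library left out, the median of the 10 was furthest from 0 without Flox 3 (-0.40) and nearest to it without Flox 1 (-0.29). It was -0.39 without HKO 1. Again 0 of 10 passed in each of these fits. With 3 against 3 libraries the smallest two-sided p of an exact permutation test is 0.1, so this test could not pass for any gene.

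**Figure D1:**
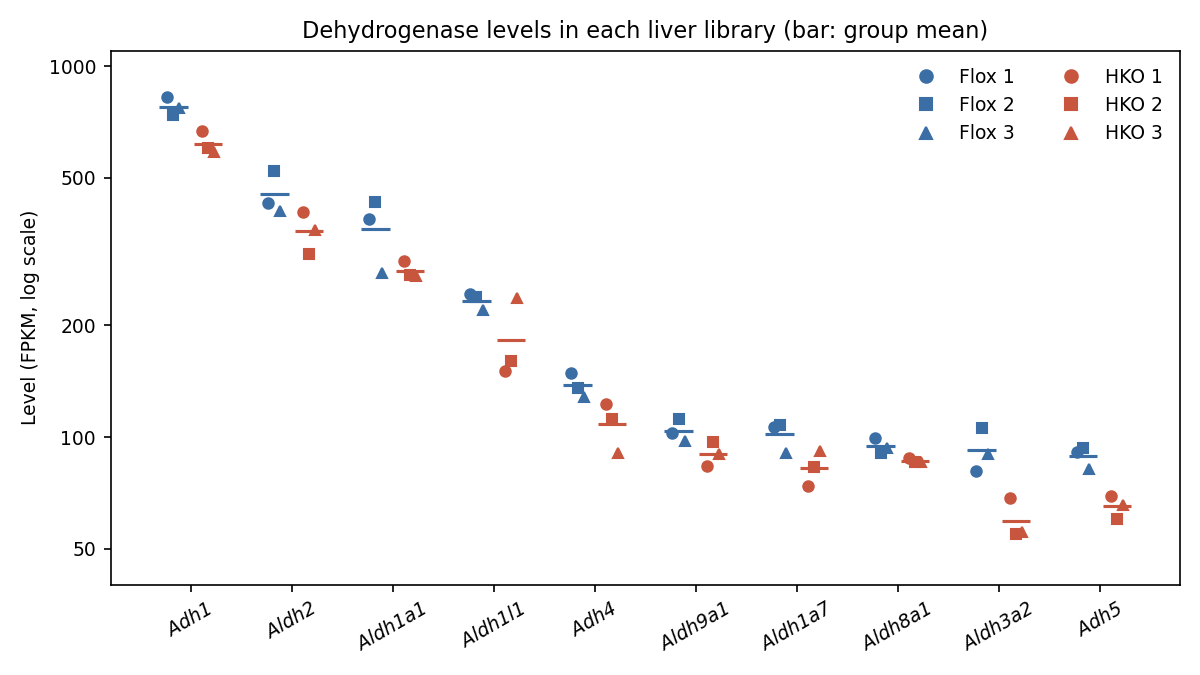
Level of each dehydrogenase (x axis) in each library (y axis, FPKM, log scale). Points are libraries, blue for Flox and red for HKO, and bars are group means. Adh1 is highest at 588 to 826 FPKM, and every HKO mean lies below its Flox mean, with overlapping points in Aldh1a1, Aldh1l1 and Aldh1a7.

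The ADH genes are described first. Adh1, the class I enzyme that oxidises ethanol and retinol, stood at 826, 736 and 771 FPKM in Flox and at 668, 600.4 and 588 in HKO. All HKO libraries lay below all Flox libraries, with means of 778 ± 45.4 and 619 ± 43.0 FPKM (SD, n = 3). The log2 fold change was -0.33 ± 0.126 (SE; limma adjusted p = 0.648). Between 22378 and 28937 reads per library stand behind these values. Adh4, the class II enzyme, which also acts on retinol and on lipid-derived alcohols, stood at 149, 136 and 128 FPKM in Flox and at 123, 112 and 90.8 in HKO. Its groups did not overlap either, with HKO 3 the lowest library, and the log2 fold change was -0.35 ± 0.146 (SE; limma adjusted p = 0.651). Without HKO 3 it was -0.23 (limma adjusted p = 0.823).

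Adh5 is the class III enzyme, which oxidises the glutathione adduct of formaldehyde and reduces S-nitrosoglutathione. It stood at 90.9, 93.4 and 81.8 FPKM in Flox and at 69.4, 60.1 and 65.7 in HKO. These groups were well apart, HKO 1 being the highest HKO library and Flox 3 the lowest Flox library. The means were 88.7 ± 6.10 and 65.1 ± 4.68 FPKM (SD, n = 3), 26.7% lower in HKO, with a log2 fold change of -0.44 ± 0.115 (SE; limma adjusted p = 0.58). By unadjusted p (0.00605) it ranked 118th of the 11856 genes. It was also the 1 member whose groups stayed apart under every scaling tried on the single libraries (FPKM, TPM with and without short genes, and assigned reads).

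Between these genes on chromosome 3 lies Adh6-ps1, a transcribed pseudogene outside the 10, singled out once its values had been seen. Its Flox libraries held 14.5, 16.5 and 14.5 FPKM and its HKO libraries 18.5, 22.8 and 18.0, the opposite direction to Adh1, Adh4 and Adh5 (log2 fold change 0.36, adjusted p = 0.648 in limma). It is 67.6% identical to Adh1 over 778 aligned bases. Adh7, at the other end of the row, ranged from 6.21 to 7.73 FPKM in Flox and from 6.22 to 6.60 in HKO, with overlap. Adh6a and Adh6b held 4 and 8 reads over all 6 libraries together.

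Aldh3a2, the fatty aldehyde dehydrogenase of the endoplasmic reticulum and peroxisome, differed most among the 10. It oxidises long-chain aldehydes from ether lipids, phytol and sphingolipids, and it is a known target of the fatty acid receptor PPARalpha. Its levels were 81.0, 106 and 90.2 FPKM in Flox and 68.4, 54.8 and 55.3 in HKO. HKO 2 and HKO 3 were lowest, HKO 1 lay between them and Flox, and the groups did not overlap. The means were 92.2 ± 12.4 and 59.5 ± 7.71 FPKM (SD, n = 3). The log2 fold change of -0.62 (SE 0.148) ranked 67th by unadjusted p (0.0038) and had an adjusted p of 0.58 in limma. A lower log2 fold change was found in 1.48% of all genes tested and in 3.78% of those of at least 50 FPKM.

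Aldh2, the mitochondrial enzyme that clears acetaldehyde, was the second most abundant member. It stood at 429, 523 and 407 FPKM in Flox and at 404, 312 and 363 in HKO. Flox 3 and HKO 1 were nearly level, so the groups were only just apart. The means were 453 ± 61.6 and 359.5 ± 46.5 FPKM (SD, n = 3), with a log2 fold change of -0.33 ± 0.159 (SE; limma adjusted p = 0.667).

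The ALDH1A genes make retinoic acid from retinal. Aldh1a1 stood at 388, 431 and 276 FPKM in Flox and at 298, 274 and 272 in HKO. Flox 1 and Flox 2 were high, while Flox 3 lay within the HKO range. The log2 fold change was -0.35 ± 0.183 (SE; limma adjusted p = 0.682), and it moved by over 1.5 times with single Flox libraries. Without Flox 3 it was -0.54 (limma adjusted p = 0.256), and without Flox 2, the highest library, it was -0.22 (limma adjusted p = 0.989). Its rodent neighbour Aldh1a7, an ALDH1A enzyme with little activity towards retinal, stood at 106, 108 and 90.6 FPKM in Flox and at 73.8, 82.9 and 91.6 in HKO. Here too Flox 3 fell within the HKO range (log2 fold change -0.29 ± 0.133 SE, limma adjusted p = 0.667). The ratio of Aldh1a1 to Aldh1a7, which does not depend on library scaling, was 3.56 ± 0.475 in Flox and 3.43 ± 0.544 in HKO (SD, n = 3, exact permutation p = 0.8).

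Aldh1l1, cytosolic 10-formyltetrahydrofolate dehydrogenase, returns folate-bound formyl groups to carbon dioxide. It stood at 243, 238 and 219.7 FPKM in Flox and at 151, 160.3 and 238 in HKO. HKO 1 and HKO 2 were low and HKO 3 lay within the Flox range. The log2 fold change was -0.38 ± 0.188 (SE; limma adjusted p = 0.674), and it was -0.58 without HKO 3 and -0.26 without HKO 1. Aldh1b1, a mitochondrial ALDH outside the 10, had the same arrangement, with 18.5 and 19.5 FPKM in HKO 1 and HKO 2, 33.5 in HKO 3 and 26.6 to 33.9 in Flox.

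Aldh9a1 and Aldh8a1 differed least. Aldh9a1, which makes the carnitine precursor gamma-butyrobetaine, stood at 102, 112 and 97.4 FPKM in Flox and at 83.8, 97 and 89.9 in HKO. Flox 3 and HKO 2 were nearly level here too (log2 fold change -0.20, adjusted p = 0.686 in limma, SE 0.117). The log2 fold change of Aldh9a1 was closer to 0 under other scalings, at -0.12 with assigned reads, -0.06 with quantile normalization, -0.05 centred on hepatocyte markers and -0.02 with TPM. Aldh8a1, which oxidises 2-aminomuconic semialdehyde on the kynurenine route of tryptophan, stood at 99.4, 90.6 and 93.6 FPKM in Flox and at 88.0, 85.8 and 85.6 in HKO. Its libraries were the most alike of the 10 within HKO, and the log2 fold change was -0.13 ± 0.103 (SE; limma adjusted p = 0.741). This sign held for the FPKM as deposited and scaled by assigned reads, and turned under TPM (0.05), quantile normalization (0.01) and centring on hepatocyte markers (0.03), and to near 0 under TPM without short genes (0.0012).

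**Figure D2:**
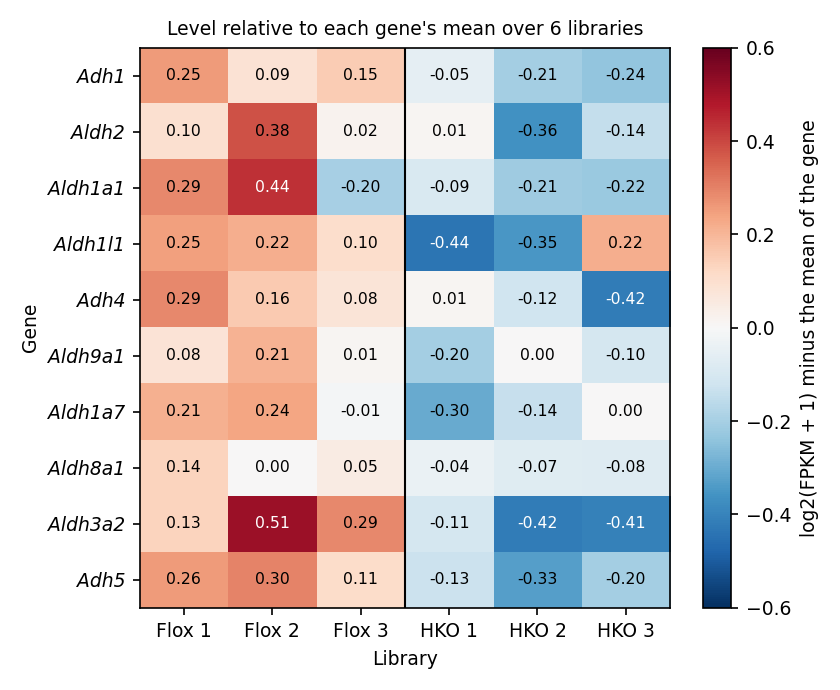
Level of each dehydrogenase (rows) in each library (columns) as log2(FPKM + 1) minus the mean of the gene over the 6 libraries. Flox 1 and Flox 2 lie above the mean in all 10 genes, while Aldh1l1 in HKO 3 (0.22) and Aldh1a1 in Flox 3 (-0.20) stand against their groups.

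The plot of centred levels shows how the 10 genes stood in each library. Flox 1 and Flox 2 lay above the mean of the gene in all 10, and Flox 3 below it in 2. HKO 1, HKO 2 and HKO 3 lay below it in 8, 9 and 8 genes. Flox 3 was the lowest Flox library for 7 of the 10 and HKO 1 the highest HKO library for 7. The summed level of the 10 genes was 2514, 2573 and 2255 FPKM in Flox and 2027, 1838 and 1939 in HKO. They took 0.846% to 0.917% of all assigned reads in Flox and 0.676% to 0.789% in HKO.

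The order of the levels, which are per length, was alike in both groups. Adh1 stood first, followed by Aldh2, Aldh1a1, Aldh1l1 and Adh4. In Flox the ranges of neighbours in this order were apart except for Aldh2 and Aldh1a1. Aldh9a1, Aldh1a7, Aldh8a1, Aldh3a2 and Adh5 followed at 88.7 to 104 FPKM, with overlapping ranges from one to the next. In HKO the first 4 genes were each apart from the next, and Adh4 overlapped with Aldh9a1. Adh5 and Aldh3a2, at 65.1 and 59.5 FPKM, were last, and the range of Adh5 lay below that of Aldh1a7 just above it.

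Shares within the family do not depend on how libraries were scaled. Adh1 made up 31.9% ± 2.91 of the summed FPKM of the 10 genes in Flox and 32.0% ± 1.45 in HKO (SD, n = 3). Adh5 made up 3.63% ± 0.00871 and 3.36% ± 0.0814, without overlap, and Aldh8a1 3.87% ± 0.323 and 4.48% ± 0.171, likewise without overlap and higher in HKO. Both had an exact permutation p of 0.1, the smallest possible, and an adjusted p of 0.5 over the 10 shares. Aldh3a2 made up 3.77% ± 0.482 and 3.07% ± 0.272, with overlap because Flox 1 (3.22%) lay below HKO 1 (3.38%). The ratio of Aldh2 to Aldh3a2 was 5.29, 4.95 and 4.51 in Flox and 5.91, 5.69 and 6.55 in HKO, without overlap (exact permutation p = 0.1, adjusted p = 0.5 over 5 ratios). The ratios of Adh1 to Adh4, Adh1 to Adh5, and Aldh2 to Adh1 overlapped between the groups.

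**Figure D3:**
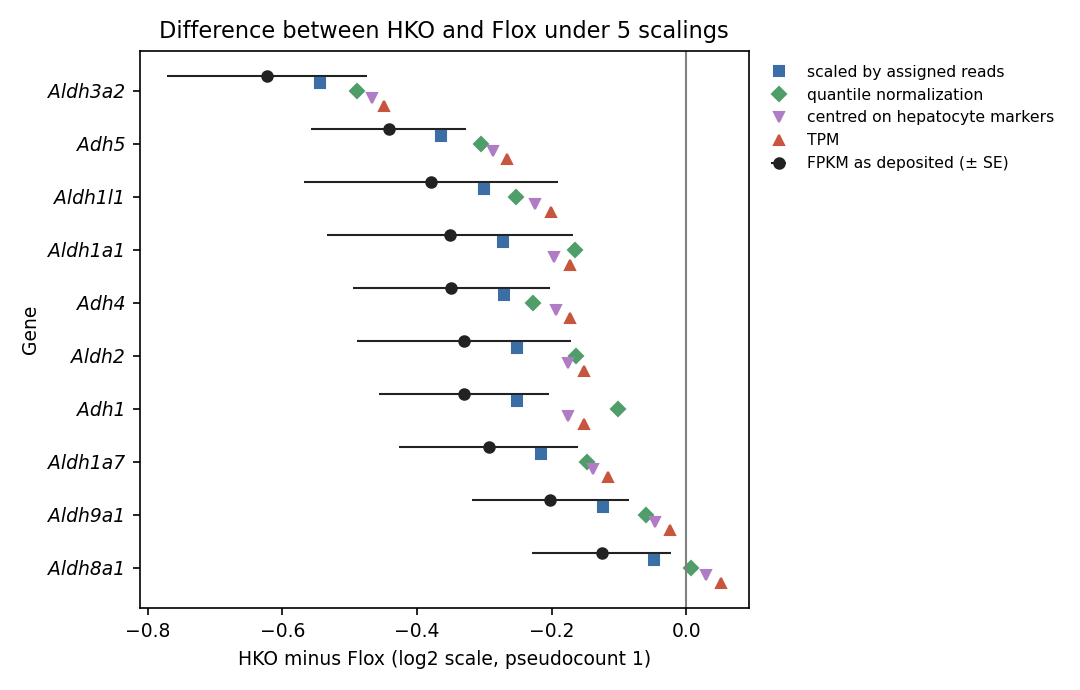
Difference between HKO and Flox for each dehydrogenase (y axis) on the log2 scale (x axis) under 5 scalings of the libraries, with the SE for the FPKM as deposited. Aldh3a2 lies furthest to the left under all 5, and Aldh8a1 crosses 0 under TPM, quantile normalization and centring on hepatocyte markers.

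The size of the difference moved with the scale of the libraries. Of all genes tested, 51.2% were lower in mean in HKO in the FPKM as deposited, 39.1% scaled by assigned reads, 32.0% under TPM without genes under 200 bases, 25.5% under TPM and 22.5% centred on hepatocyte markers. TPM, which fixes the sum of each library, raised the median log2 fold change of all genes to 0.15 and that of the 10 to -0.16, with 9 of them lower and only Adh5 still without overlap (1 of 10, against 2.02% of all genes tested and 5.14% of those of at least 50 FPKM). Scaling by assigned reads left 3 of the 10 without overlap, namely Adh5, Aldh3a2 and Aldh9a1, against 4.38% of all genes tested. Under each of the 17 alternative settings, which re-use the same libraries, all 10 members lay below the median of all genes. Genes of at least 50 FPKM are the nearer comparison. Of these, in the FPKM as deposited, 51.4% had a lower log2 fold change than Aldh8a1 and 39.2% a lower one than Aldh9a1. Every one of the 10 had a log2 fold change nearer to 0 under TPM than in the FPKM as deposited, for example -0.15 against -0.33 for Adh1 and -0.45 against -0.62 for Aldh3a2. The FPKM sum behind TPM differed between the groups, at 431497 to 494433 in Flox and 412344 to 422735 in HKO. The library size behind the FPKM was 0.934 to 1.03 times the assigned reads in Flox and 1.01 to 1.06 times in HKO. What lies behind these differences was not tested. Flox 2 had a sum of 491399 with 2.40% of it in genes under 200 bases. Genes under 200 bases took 7.95% of the sum in Flox 1, 7.2% in Flox 3 and 2.31% to 2.80% in the other 4 libraries. Without these genes in the sum, TPM gave a median of -0.21 for the 10 and left 2 without overlap (Adh5 and Aldh3a2), against 3.11% of all genes tested.

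Markers of liver cell types were read as well. The counts of lower genes stand beside 51.2% of all genes tested and 70% of those of at least 50 FPKM. Hepatocyte markers had a median log2 fold change of -0.15, with 8 of 11 lower, near the median of -0.14 of genes of at least 50 FPKM. Their sums overlapped, at 49251 to 51943 FPKM in Flox and 43192 to 53196 in HKO. Markers of Kupffer cells and macrophages were higher in 14 of 14 tested (median 0.66), with summed levels of 246 to 387 FPKM in Flox and 344 to 541 in HKO. Erythroid markers were lower in 5 of 5 (median -0.72), with sums of 295 to 333 and 136 to 270 FPKM. Stellate, endothelial, biliary, T and B cell markers had medians of 0.01, 0.14, 0.10, 0.21 and 0.13. Of the fat cell list, Adipoq was listed at 0 and the 1 gene tested was Car3, which liver also expresses. Of the pancreas and gut list, Prss1, Pnlip and Try4 were listed at 0. The 3 genes tested in it were lower in mean (median -0.14). In 1 of them the groups did not overlap, against 7.21% of all genes tested and 14.6% of those of at least 50 FPKM. Under TPM 2 of the 3 were lower and 1 higher (median -0.05), against 25.5% lower (median 0.15) over all genes tested. In none of these lists did a gene pass in limma. In whole tissue, fewer cells of a type and less RNA per cell cannot be told apart, and the part of these markers in the dehydrogenase values was not tested. Centred on the hepatocyte markers, a setting added after the data were seen, the median of the 10 was -0.19, with 9 of 10 lower.

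**Figure D4:**
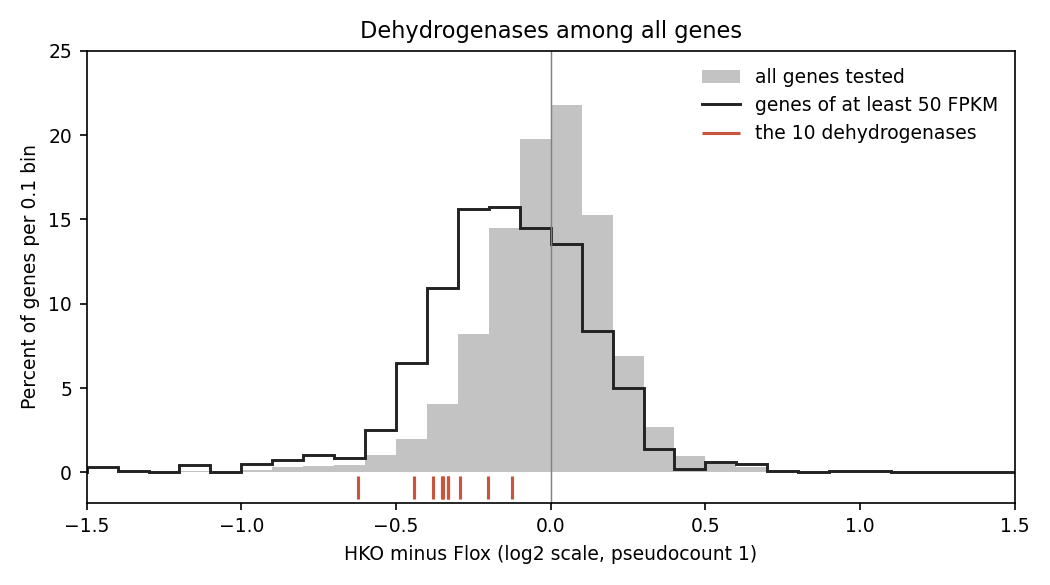
Percent of genes (y axis) by difference between HKO and Flox on the log2 scale (x axis, bins of 0.1), for all 11856 genes tested (grey) and the 953 genes of at least 50 FPKM (black line). Red ticks are the 10 dehydrogenases, which lie between -0.62 and -0.13, to the left of the medians of -0.01 and -0.14 except Aldh8a1, which lies right of the second.

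The rest of the family was read next. Of 18 further ADH and ALDH genes, 9 were tested, all 9 had a negative log2 fold change, and 0 passed. In mean FPKM, Aldh5a1 (9.909 in Flox, 9.925 in HKO) and Aldh3b1 (1.145 and 1.15) were marginally higher in HKO. A negative log2 fold change was seen in 51.2% of all genes tested and in 70% of those of at least 50 FPKM. The median log2 fold change of the 9 was -0.16 (0.01 under TPM, with 4 lower and 5 higher). Under TPM 25.5% of all genes tested were lower, with a median of 0.15. In the FPKM as deposited, 3 had all HKO libraries below all Flox libraries, against 7.21% of all genes tested. Aldh7a1, which acts in lysine breakdown, had means of 114 ± 7.91 FPKM (Flox) and 91.1 ± 1.89 (HKO; SD, n = 3, as for all means below). Adhfe1, which oxidises hydroxybutyrate, stood at 29.8 ± 1.91 and 24.4 ± 2.19, and Aldh4a1 of proline breakdown at 53.3 ± 0.888 and 46.6 ± 1.25 FPKM. Aldh3a1 and Aldh3b2 were listed at 0 in every library. Aldh1a2 and Aldh1a3, the other retinal dehydrogenases, held 26 and 35 reads over all 6 libraries, far fewer than Aldh1a1 or Aldh1a7 in any 1 library.

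The pathways that surround the 10 enzymes were read from lists of genes. None of their genes passed in limma, in either direction. The genes named are mainly those of smallest unadjusted p per list, a choice that favours groups without overlap. All HKO libraries lay below all Flox libraries in 1 of 7 ethanol, 3 of 28 retinoid and 7 of 26 folate genes. The same held in 4 of 19 lipid aldehyde, 3 of 10 formaldehyde, 5 of 11 kynurenine and 3 of 9 carnitine genes. It held in 7.21% of all genes tested and 14.6% of those of at least 50 FPKM. The reverse held for 1 retinoid gene, and for 6.06% of all tested. The counts of lower genes below stand beside 51.2% of all genes tested and 70% of those of at least 50 FPKM. The values under TPM stand beside 25.5% lower and a median of 0.15 over all genes tested. For ethanol and acetate, 5 of 7 tested genes were lower in mean and 2 higher (median -0.14, and 0.04 under TPM). Cat, catalase, which can also oxidise ethanol, had means of 1464 ± 108 FPKM (Flox) and 1182 ± 102 (HKO) without overlap. Cyp2e1, the microsomal ethanol oxidase, stood at 4497 ± 537 and 4092 ± 532 with overlap.

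Retinoid genes were mixed, with 16 of 28 lower and 12 higher (median -0.11, and 0.06 under TPM). Ttr, a plasma carrier of thyroid hormone and vitamin A, had means of 5810 ± 709.9 FPKM (Flox) and 4329 ± 166 (HKO), with groups apart. Aox1, an aldehyde oxidase, stood at 8.86 ± 0.632 and 6.70 ± 0.379, also without overlap. Rdh9, a retinol dehydrogenase, stood the other way, at 3.59 ± 0.48 and 5.12 ± 1.07 FPKM with overlap.

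Folate and one-carbon genes, the setting of Aldh1l1, were lower in 19 of 26 (median -0.11, and 0.05 under TPM). The serine hydroxymethyltransferases Shmt1 and Shmt2, which load folate with 1-carbon units, stood at 62.9 ± 4.36 and 51.0 ± 5.66 FPKM and at 86.5 ± 6.46 and 70.3 ± 4.22, both without overlap. Ftcd, which feeds histidine carbon into folate, stood at 149 ± 15.4 and 119.7 ± 15.3.

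Genes that make or remove lipid aldehydes, the setting of Aldh3a2, were lower in 15 of 19 (median -0.27, and -0.09 under TPM). Hacl1, the peroxisomal lyase that releases fatty aldehydes in alpha-oxidation, stood at 5.09, 5.19 and 5.10 FPKM in Flox and at 3.68, 3.24 and 2.63 in HKO. These groups were far apart (log2 fold change -0.56 ± 0.114 SE, limma adjusted p = 0.58). Phyh, the enzyme upstream of Hacl1 on phytanic acid, stood at 1135 ± 126 and 847.8 ± 57.7 FPKM. Gsta4, which conjugates hydroxynonenal, stood at 37.2 ± 5.19 and 24.9 ± 2.41, both without overlap.

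In the formaldehyde list, the setting of Adh5, 8 of 10 genes were lower (median -0.22, and -0.05 under TPM). Esd, the esterase that takes the product of Adh5 on to formate, stood at 92.5, 93.2 and 80.5 FPKM in Flox and at 68.9, 61.8 and 67.9 in HKO. Its libraries came in the same order and at nearly the same level as those of Adh5 (log2 fold change -0.42 ± 0.115 SE, limma adjusted p = 0.591). Of the kynurenine genes, the setting of Aldh8a1, 11 of 11 were lower (median -0.28, and -0.11 under TPM with 8 lower). Afmid, which frees kynurenine from its formyl group, stood at 11.4, 9.50 and 8.78 FPKM in Flox and at 4.79, 5.16 and 5.81 in HKO. These groups were far apart (log2 fold change -0.79 ± 0.122 SE, limma adjusted p = 0.455). Haao, which makes the precursor of quinolinate, stood at 500.1 ± 43.5 and 358 ± 55.3 FPKM and Qprt, which turns quinolinate into a nucleotide, at 93.2 ± 10.99 and 71.5 ± 7.22. Aldh8a1 thus had a smaller log2 fold change than the median of its list, a difference that was not tested. Genes of carnitine synthesis and amine breakdown, the setting of Aldh9a1, were lower in 8 of 9 (median -0.17, and -0.07 under TPM). Bbox1, the next and last enzyme of carnitine synthesis, stood at 44.5 ± 2.27 and 37.0 ± 2.80 FPKM, and the amine oxidase gene Maob at 101 ± 8.27 and 76.5 ± 3.56.

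Liver zones were read in the same way. Pericentral genes were lower in 13 of 18 (median -0.15) and periportal genes in 9 of 15 (median -0.18), with medians of 0.02 and 0.00 under TPM.

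Among 3261 other genes of at least 10 FPKM, the 5 whose levels followed the mean of the 10 dehydrogenases most closely were Glrx3, Esd, Ndufs8, Aspdh and Ttr. Pearson's r over the 6 libraries was 0.998, 0.994, 0.994, 0.993 and 0.988 in that order, given as a description, since the points share their group difference and library scaling, and 180 of the 3261 genes reached 0.9. Aspdh, aspartate dehydrogenase domain-containing protein, stood at 86.4, 89.1 and 67.3 FPKM in Flox and at 57.1, 48.9 and 54.6 in HKO. Glrx3, a glutaredoxin, stood at 13.4, 13.6 and 12.6 FPKM in Flox and at 11.5, 11.1 and 11.4 in HKO. In both, the order of the libraries was that of the dehydrogenase mean, with Flox 2 highest and HKO 2 lowest.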

How the data were processed

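Liver RNA of 6 libraries (3 Flox, 3 HKO) was isolated on RNeasy Plus columns, and 1.3 µg entered NEBNext Ultra RNA libraries, per the labels' protocols. The authors deposited 1 table of FPKM per gene and library, with gene lengths. The submitters' processing notes list GRCm38 and mm10. No source used here names an aligner, a counter or an annotation release. FPKM times gene length gave whole reads for 100% of values above 0, within 0.02 reads.

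Genes of at least 0.5 FPKM in at least 3 libraries (11856) were tested on log2(FPKM + 1) in limma 3.58.1 (R 4.3.3, statmod 1.5.0; trend, robust, two-sided) with Benjamini-Hochberg adjustment over all of them and a threshold of 0.05. The fitting script was tested on simulated data. FPKM are not counts, and a fold change on this scale understates the change of low genes. Alternatives were other scalings (TPM, quantile, assigned reads), a pseudocount of 0.1, no filter, a mean of at least 5 FPKM, array weights, voom on recovered reads, the replicate block and each library left out. Centring on hepatocyte markers and TPM without genes under 200 bases were added after seeing the data. Exon overlaps and copies come from GENCODE M21 (GRCm38), the latter with blastn 2.17.0. The genes named are the 10 members, G3bp1, up to 4 genes of smallest unadjusted p per list (1 is not reported here), and the 5 genes most like the members. Other genes named were chosen after their values were seen. The members and lists were chosen with earlier results of these data known.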

Additional observations from a re-analysis of the deposited data

How the results depend on the processing

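None of the 10 dehydrogenases passed under the 17 alternative settings, the smallest adjusted p being 0.127 with array weights. Of the 10, 9 were lower in mean throughout, while Aldh8a1 turned to 0.0516 under TPM, 0.0072 under quantile normalization, 0.0294 centred on hepatocyte markers and 0.0012 under TPM without genes under 200 bases. The median over the 10 was -0.1627 with TPM, -0.1647 with quantile normalization, -0.2617 with assigned reads, -0.1851 centred on hepatocyte markers and -0.2132 under TPM without short genes, and -0.40 to -0.29 with 1 library left out. Of all genes, 0 passed with no filter, 2 at a mean of at least 5 FPKM, 3 with array weights, 3 with voom, and 0 to 13 with 1 library left out, the 13 being without HKO 1. More genes were tested with no filter and fewer at the higher minimum; otherwise the cause was not tested. With the replicate block 0 genes passed, no member passed, and the median of the 10 stayed at -0.34. Same-numbered libraries deviated together at r = 0.0215, 0.015 and 0.0704 across genes, and differently numbered ones at -0.0999 to 0.0736. The main fit did not take the numbers as pairs, since the labels give genotype as the only factor. Each member had at least 2441 reads in every library.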
